A study of Mus musculus with 23 samples.

Results

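The comparison described here is the second part of a retinoic acid treatment, from 48 to 96 h, in A404 cells, a clone of the P19 mouse embryonal carcinoma line. Arrays were taken by their titles: 6 arrays of cells harvested after 96 h (RA96) were set against 5 arrays of cells harvested after 48 h (RA48), which makes 11 of the 23 arrays of the series. The other arrays held 6 untreated samples taken at time 0 from dishes grown near to confluence (Control) and 6 samples given 48 h of puromycin after 96 h of retinoic acid (Puromycin), and they entered the same fit. Both RA48 and RA96 cells had been changed at about 30% confluence to basal medium in which all-trans-retinoic acid was at 1 umol/L, and each replicate pooled RNA from 5 to 6 plates. RA96 cells had therefore also spent 48 h longer in that medium, so time in culture and exposure to retinoic acid cannot be told apart. Each array read Cy5-labelled cell RNA against a common Cy3-labelled reference of pooled whole mouse embryos of day 17.5, and every level below is a log2 ratio of cells over that reference.

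Retinoic acid is the ligand of nuclear receptors of the RAR and RXR families, and it drives embryonal carcinoma cells out of the pluripotent state, toward fates that depend on dose and culture. A404 was selected as a line that gives smooth muscle at high frequency, and it carries a puromycin resistance gene under the Acta2 promoter, so the system is a single clone chosen for that outcome. In smooth muscle, serum response factor (SRF) with its partner myocardin binds CArG boxes in the promoters of contractile genes, while TGF-beta and activin signals act through Smad proteins and matrix, integrins and the actin cytoskeleton feed back on the same genes. RNA was taken from whole dishes, so fewer cells of a type and less RNA per cell cannot be told apart.

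The 23 arrays fell into a pair of sets that the labels do not name, read from the first component of the deviations from the group means, which held 48.9% of the variance within groups against 10.6% for the next component. RA48 had 3 arrays in set 1 (replicates 1 to 3) and 2 in set 2, and RA96 had 2 in set 1 (replicates 1 and 3) and 4 in set 2. Pairs of RA48 arrays and pairs of RA96 arrays correlated at 0.83 to 0.97 within a set and at 0.70 to 0.85 across sets. The set was therefore fitted as a block beside the 4 group means in limma, and a gene was called at an adjusted p (Benjamini-Hochberg over 17863 rows) under 0.05. Because the sets were read from the same residuals, these p-values are optimistic. Whether replicates were grown separately is not said in the labels, so a p-value here rests on differences among arrays that may be technical. Since 1 set shift was shared by all 4 groups, a fitted change can lie outside both changes measured within the sets.

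Between 48 and 96 h more genes rose than fell in the lists of smooth muscle contractile, interstitial matrix, secreted protease, adhesion, actin remodelling and TGF-beta ligand genes, and more fell than rose in those of pluripotency, neural patterning, mitosis, DNA replication and chromatin. The counts of each list are given below, and in several of them fewer than 50% of the members were called in the direction named. Of 8683 genes, 3128 (36.0%) were called, 1367 (15.7%) higher and 1761 (20.3%) lower at 96 h, and the median change over all genes was -0.05. At least a 2-fold change was seen for 165 genes higher (1.90%) and 79 lower (0.910%). Of these 244 genes, 186 were called within both sets in 1 direction, 235 were also called without the set term and 117 with the group and set as a random block. List counts below are to be read beside the 15.7% and 20.3% of all genes. Counts without the set term stand beside 10.8% higher and 11.6% lower, and random block counts beside 1.42% and 0.875%. A test added after the data were seen found that the change differed between the sets for 1099 genes (12.7%), among them 56 of the 244, and 166 of the 244 had the larger change in set 1.

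Among called genes with 1 sign in both sets, which leaves out Smad9 (2.56), the 12 largest rises were Serpinb6b, Inhba, Adamts5, Sytl2, Postn, Prss23, Emp1, Ptgs2, Tgfb2, Pdgfc, Ecm1 and Ppbp, with fitted changes from 2.31 to 3.80. By the same rule, and with 1 predicted gene passed over, the 12 largest falls were Lefty1, Trh, Sox2, Car2, Prex2, Igfbp2, Gfra1, Large2, Irx3, Prtg, Sowahb and Kit, with changes from -3.56 to -1.68. All 24 had RA48 and RA96 arrays that were fully apart, as did 13.7% of all genes (6.16% with RA96 above and 7.55% with RA96 below). All 12 rises and 11 of the 12 falls were called within both sets, Sox2 being the exception (adjusted p = 0.14 in set 2, limma). Of all 8683 genes, 833 were called in the main fit and within both sets in 1 direction. The 24 genes were picked from these same arrays by size of change and by 1 sign in both sets. Their separate arrays and their calls within the sets follow largely from that choice and are no added support. With the group and set as a random block, 10 of the 12 rises (1.42% of all genes rose by that rule) and 8 of the 12 falls (0.875%) were called. Of 161 genes given below with a fitted change 152 were called, and of these 19 lost the call without the set term, each marked where it is given, and 90 with the random block.

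**Figure D1:**
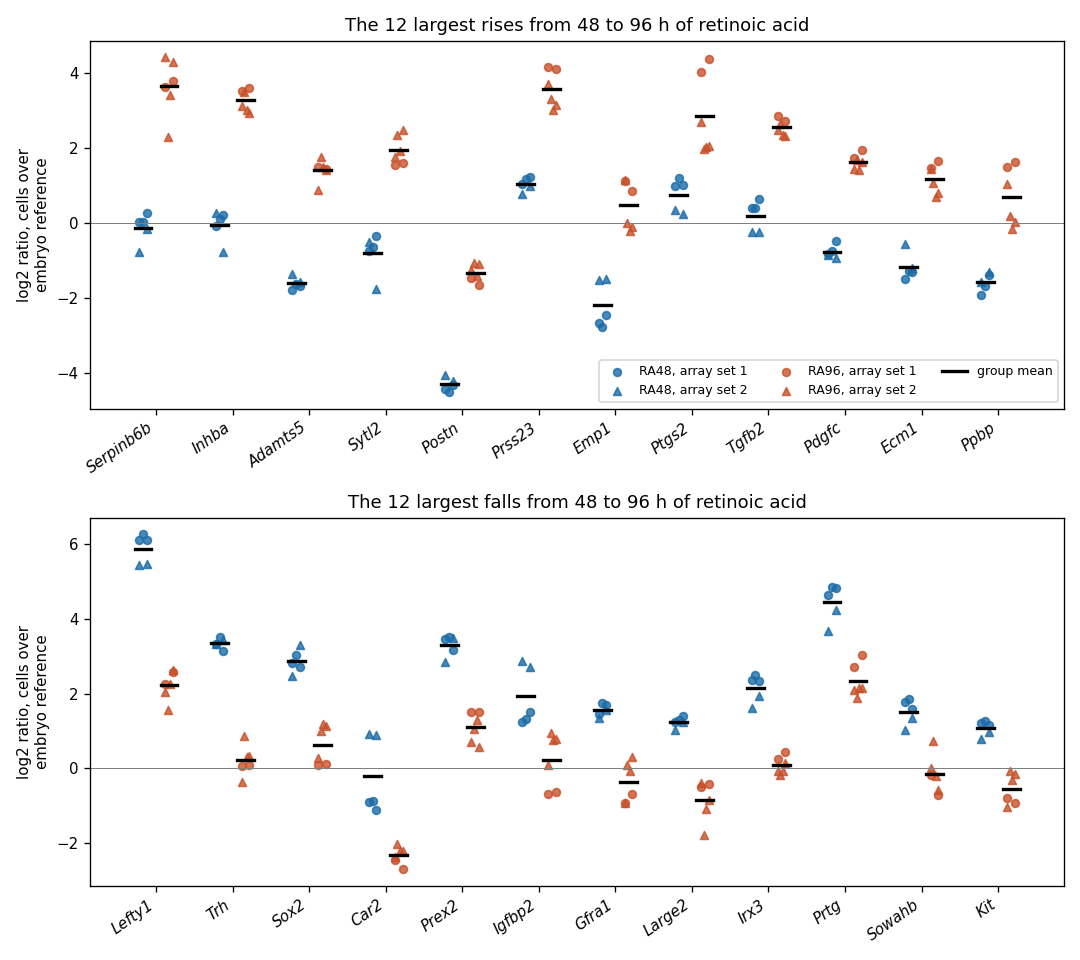
Log2 ratio of cells over the embryo reference (vertical axis) on each RA48 array (blue) and RA96 array (orange) for the 12 genes with the largest rises (top) and falls (bottom), with circles for array set 1, triangles for set 2 and a black line at the group mean. No gene shown has overlapping groups, and Car2, Igfbp2 and Emp1 also show a gap between the sets within RA48.

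The comparison was first set against the 4 genes that mark it and against cell type markers. Inhba, Adamts5 and Postn rose and Lefty1 fell, as described below. Over all genes 15.7% rose and 20.3% fell. Of 6 measured smooth muscle markers 4 rose (Acta2, Myl9 and Cnn1 among them) and none fell, and their mean level lay between -0.87 and -0.22 on the RA48 arrays and between -0.06 and 0.89 on the RA96 arrays. Of 4 measured pluripotency markers 3 fell and none rose, with mean levels of 0.65 to 1.16 at 48 h and 0.06 to 0.30 at 96 h. Sox2 fell most (group means 2.87 at 48 h and 0.63 at 96 h) and weighs most in that mean. Zfp42 did not pass the test and stayed above the reference, with group means of 1.32 and 1.16. Tagln and Pou5f1 were not measured by a probe with a single gene symbol.

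Markers of other cell types also moved, where 15.7% of all genes rose and 20.3% fell. Among 4 markers of extraembryonic endoderm 2 rose and 1 fell, and among 4 endothelial markers 2 rose and 1 fell, with mean levels of -1.32 to -1.01 at 48 h and -1.03 to -0.70 at 96 h. Of 4 epithelial markers the keratins Krt8 and Krt18 rose, Cdh1 fell and Epcam did not pass the test (-0.41, adjusted p = 0.0622, limma), with a median change of 0.06 and mean levels of 0.55 to 0.76 at 48 h and 0.73 to 1.06 at 96 h. Among 7 cardiac and skeletal muscle markers 1 rose and 2 fell, and of 3 neuronal and glial markers 1 rose. Their part in the results below was not tested.

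More smooth muscle contractile genes rose than fell. Of 20 measured, 12 rose and none fell (15.7% and 20.3% of all genes), and the median change was 0.42 against -0.05 for all genes. The other 8 did not pass the test. Without the set term 7 rose and none fell, where 10.8% of all genes rose and 11.6% fell, and with the random block 2 rose and none fell, where 1.42% and 0.875% of all genes did. Acta2, the smooth muscle alpha-actin, stood at -0.37, -0.48, -0.11, -0.32 and -0.40 on RA48 replicates 1 to 5, and on the 6 RA96 arrays its lowest, median and highest values were 1.69, 1.87 and 2.03. Every RA96 array was above every RA48 array, by more than 1 log2 unit. The fitted change was 2.11 (SE 0.19, adjusted p = 5.57e-08 by limma), with 2.24 in set 1 and 2.21 in set 2.

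Myl9, the regulatory light chain of smooth muscle myosin, moved with Acta2. Its RA48 values were -0.83, -0.80, -0.70, -0.57 and -0.55, and its RA96 values ran from 1.08 through a median of 1.43 to 1.52. The groups were again separate, and the fitted change was 1.88 (SE 0.14, adjusted p = 7.04e-09, limma). Cald1, the thin filament protein caldesmon, rose by 0.98 (SE 0.13, adjusted p = 7.97e-06) with separate groups. Actg2, the gamma actin of visceral smooth muscle, rose by 0.92 (SE 0.19, adjusted p = 0.00106), but its arrays overlapped and the call was lost without the set term (adjusted p = 0.13).

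The later markers of the lineage moved less. Cnn1, calponin, rose by 0.55 (SE 0.20, adjusted p = 0.0436, limma), with values of -0.19 to 0.45 at 48 h and 0.25 to 1.10 at 96 h. The groups overlapped, and the call was lost without the set term (adjusted p = 0.078) and when any of 7 arrays was left out (RA48 replicates 1, 3, 4 and 5 and RA96 replicates 1, 2 and 3, with adjusted p up to 0.121). Myh11, the smooth muscle myosin heavy chain, did not pass the test (-0.20, SE 0.13, adjusted p = 0.219). Its values split by set, with RA48 replicates 1 to 3 at -2.04 to -1.74 and replicates 4 and 5 at 0.00 and 0.17, and the RA96 arrays spanned -2.10 to 0.18.

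Among 18 regulators of smooth muscle and myocytes 10 rose and none fell (median 0.24), 6 rose without the set term and 1 with the random block. Fhl1, a LIM-domain protein of muscle, had RA48 values of -1.48, -1.45, -1.24, -1.42 and -1.57 and RA96 values from -0.05 through 0.34 to 0.87. The groups were separate, with a change of 1.82 (SE 0.12, adjusted p = 1.14e-09). Prrx1, a mesenchymal homeobox factor, rose by 1.04 (adjusted p = 4.13e-05), Klf4, a zinc finger factor known in both pluripotent and injured smooth muscle cells, by 0.96 (adjusted p = 0.00209), and Gata6, a GATA factor of smooth muscle and endoderm, by 0.64 (adjusted p = 0.0116). For Gata6 and Klf4 the change was called in set 1 (1.03 and 1.38) but not in set 2 (0.20 and 0.64).

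Of 165 genes at least 2-fold higher, 126 had a promoter window in the RefSeq table (GRCm38.p6), taken here as the 250 bases before the annotated start, and 7 of them (5.56%) held the CArG box on either strand. The same share was 1.41% over 7022 genes of the array with a window and 3.28% (2 of 61) among genes at least 2-fold lower, and 1.47% of all 32851 windows in the table held the box. The 7 genes were Myl9, Pdgfc, Ppbp, Fermt2, Filip1l, Gsto1 and Fhl1, and the 2 lower ones were Cited1 and Dgkh. The 4 windows printed, chosen after the values were seen, show where the box lies in a contractile gene, a muscle LIM protein, a filamin-binding protein and a growth factor that all rose, with the CArG box in capitals:
Myl9 (chr2:156775214-156775463, plus strand): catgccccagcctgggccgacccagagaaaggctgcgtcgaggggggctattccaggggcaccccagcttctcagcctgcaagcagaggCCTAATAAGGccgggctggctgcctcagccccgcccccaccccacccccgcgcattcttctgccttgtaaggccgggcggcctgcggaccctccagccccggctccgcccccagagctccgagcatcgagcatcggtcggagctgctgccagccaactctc
Fhl1 (chrX:56779433-56779682, plus strand): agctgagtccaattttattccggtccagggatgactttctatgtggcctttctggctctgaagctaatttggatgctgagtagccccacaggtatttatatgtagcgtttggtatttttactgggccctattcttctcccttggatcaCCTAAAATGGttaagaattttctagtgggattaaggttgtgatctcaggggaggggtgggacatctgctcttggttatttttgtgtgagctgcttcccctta
Filip1l (chr16:57548992-57549241, plus strand): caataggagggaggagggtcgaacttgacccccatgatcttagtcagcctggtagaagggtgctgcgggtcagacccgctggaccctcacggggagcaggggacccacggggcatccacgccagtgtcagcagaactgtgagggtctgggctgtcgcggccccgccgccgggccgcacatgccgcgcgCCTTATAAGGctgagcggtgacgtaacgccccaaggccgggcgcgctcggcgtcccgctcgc
Pdgfc (chr3:81036166-81036415, plus strand): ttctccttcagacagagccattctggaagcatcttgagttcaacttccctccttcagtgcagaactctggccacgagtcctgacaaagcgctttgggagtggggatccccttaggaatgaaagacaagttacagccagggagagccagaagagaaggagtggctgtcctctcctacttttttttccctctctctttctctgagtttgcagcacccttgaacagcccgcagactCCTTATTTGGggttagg
The box lies 161 to 152 bases before the start in Myl9, 102 to 93 in Fhl1, 62 to 53 in Filip1l and 17 to 8 in Pdgfc. Filip1l, named after its values were seen, rose by 1.30 (SE 0.15, adjusted p = 1.72e-06, limma). A match is a description of letters and not a bound site.

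A pair of other motifs was counted in the same windows on both strands. The AP-1 letters TGANTCA were held by 9.52% of the genes at least 2-fold higher, 3.28% of those at least 2-fold lower and 5.61% of array genes. The TEAD letters GGAATG were held by 25.4%, 19.7% and 13% of the same groups. Among the contractile genes with a window, 3 of 17 held the CArG box (Myl9, with Myl6 and Vcl) and 8 held the TEAD letters. Over all windows a CArG box overlapped a TEAD match in 4, and an AP-1 match overlapped a TEAD match in 25.

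Ligands of the TGF-beta family supplied some of the largest rises. Of 6 measured ligands 4 rose and none fell (median 0.55), and 4 rose and none fell without the set term and 2 and none with the random block. Inhba encodes the subunit of activin A. It stood at -0.08, 0.11, 0.22, 0.26 and -0.78 on the RA48 arrays, and at 2.93, 3.31 and 3.59 (lowest, median, highest) on the RA96 arrays. Replicate 5 was the lowest of RA48, and all RA96 arrays lay more than 2 log2 units above the highest RA48 array. The change was 3.43 (SE 0.26, adjusted p = 7.48e-09, limma), with 3.48 and 3.40 in the sets.

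Tgfb2, TGF-beta 2, was at 0.39, 0.40, 0.64, -0.23 and -0.23 at 48 h and at 2.33 to 2.84 with a median of 2.57 at 96 h. RA48 replicates 4 and 5 were the lowest, and the groups were far apart. Its change was 2.41 (SE 0.16, adjusted p = 9.9e-10), and both of its probes rose in both sets (2.19 to 2.70). Tgfb1 and Tgfb3 rose less, by 0.52 (adjusted p = 2.34e-06) and 0.57 (adjusted p = 0.000351), from levels below the reference. Inha, the inhibin alpha subunit, and Gdf10, a BMP-like ligand, were at 0.04 and 0.11 and did not pass the test.

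The largest of the 12 falls was that of a secreted nodal inhibitor. Lefty1 stood at 6.10, 6.26, 6.12, 5.45 and 5.48 on the RA48 arrays and at 1.56, 2.26 and 2.64 (lowest, median, highest) on the RA96 arrays. All RA96 arrays were below all RA48 arrays by more than 2 log2 units. The change was -3.56 (SE 0.16, adjusted p = 8.81e-12, limma), and the group means put RA96 (2.23) below untreated cells (3.85).

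Among the other inhibitors and co-receptors, Ltbp1, which binds latent TGF-beta in the matrix, rose by 1.30 (SE 0.09, adjusted p = 1.07e-09) and Ski, a nuclear repressor of Smads, fell by 0.87 (SE 0.09, adjusted p = 6.05e-07). Follistatin (Fst, 0.12), Fstl3 (0.20), Skil (0.04) and Tgif1 (-0.10) did not pass the test, which for Fst and Skil covers changes of opposite sign in the sets (0.34 and -0.23 for Fst, 0.41 and -0.24 for Skil).

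Receptors and Smads moved in both directions. Of 13 measured 3 rose and 5 fell (median -0.11), or 23.1% and 38.5%, beside 15.7% and 20.3% of all genes. Without the set term 2 rose and 4 fell, and with the random block none was called. Tgfbr2, the type II receptor of TGF-beta, rose by 0.93 (SE 0.15, adjusted p = 0.000118), with RA48 values of -1.72 to -0.69 and RA96 values of -0.48 to 0.03. Acvr2b, a type II receptor of activin and nodal, fell by 0.88 (SE 0.10, adjusted p = 2.18e-06), from 0.69 to 1.29 at 48 h down to -0.36 to 0.24 at 96 h. Neither receptor had overlapping groups.

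Acvr1b, the type I receptor of activin, fell by 0.38 (adjusted p = 0.000486), as did the co-receptors Tgfbr3 (-0.52, adjusted p = 0.00578) and Eng, endoglin (-0.33, adjusted p = 0.0068), while Acvr1 rose by 0.41 (adjusted p = 0.0123). Eng was not called without the set term (adjusted p = 0.70).

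Smad9, a Smad of the BMP branch, was called higher (2.56, SE 0.80, adjusted p = 0.0183), but that value joins opposite readings in the sets. RA48 replicates 1 to 3 read -4.18, -4.38 and -4.24, replicates 4 and 5 read 1.93 and 2.69, and the RA96 arrays read 0.95 to 2.41. The change was 5.38 in set 1 and -0.15 in set 2, and the call was lost without the set term (adjusted p = 0.059) and when RA48 replicate 1, 2 or 3 or RA96 replicate 1 or 3 was left out (adjusted p up to 0.0621).

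Of 13 known targets of TGF-beta 5 rose and none fell (median 0.24), where 15.7% of all genes rose and 20.3% fell. Without the set term 4 rose and none fell, and with the random block 2 rose and none fell. Ccn2, connective tissue growth factor, rose by 1.55 (SE 0.16, adjusted p = 4.12e-07), from 2.34 to 2.57 at 48 h to 3.73 to 4.32 at 96 h. Tgfbi, a matrix protein named for its induction by TGF-beta, rose by 0.96 (adjusted p = 0.00135) with overlapping groups. Of 15 BMP pathway genes 6 rose and none fell (median 0.09), 3 of them also without the set term and none with the random block. They included Msx1, a homeobox target of BMP (0.86, adjusted p = 0.00728), and the ligand Bmp6 (0.53, adjusted p = 0.000616).

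**Figure D2:**
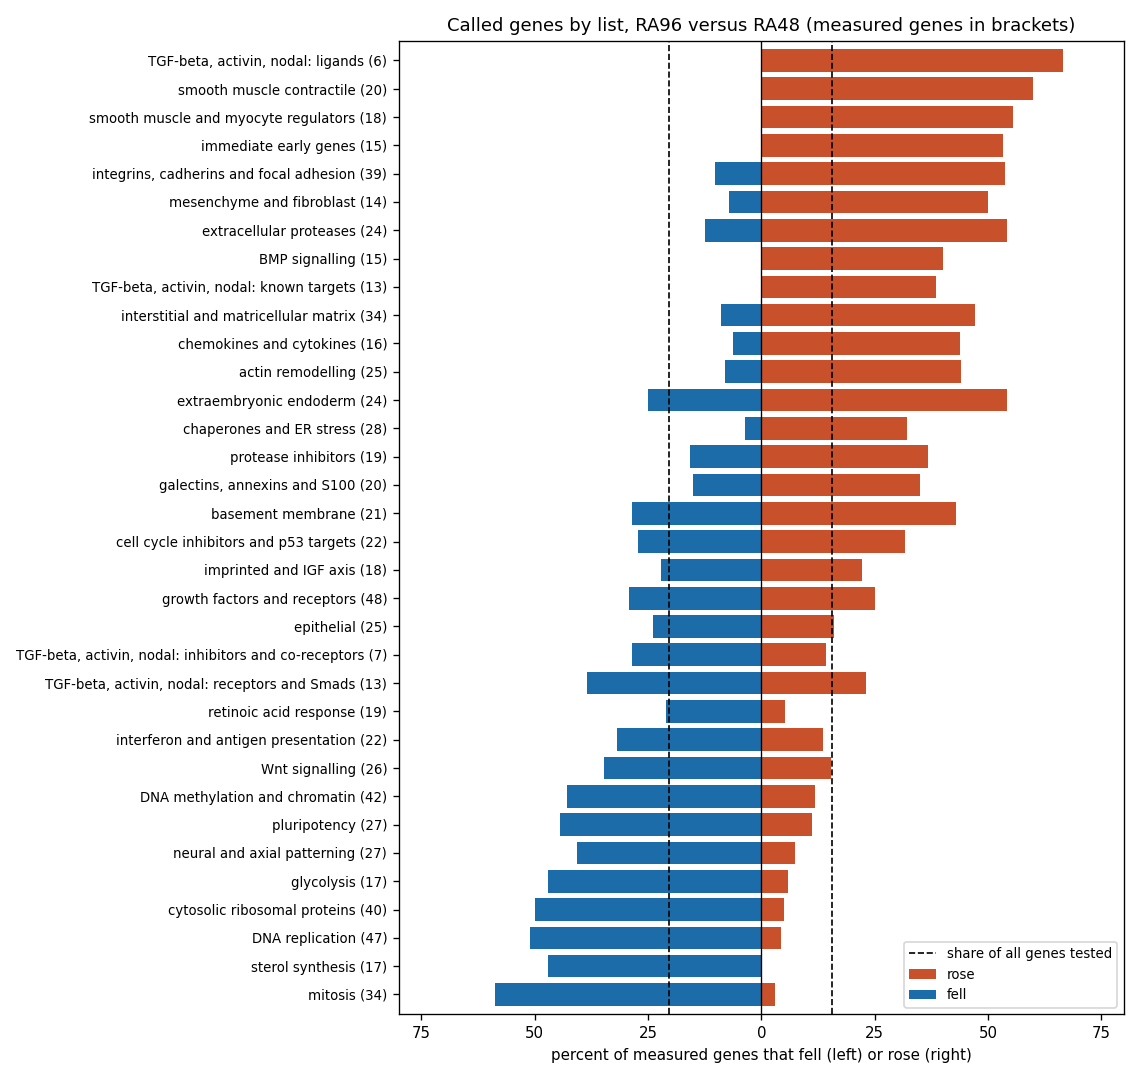
Percent of the measured genes of each list that rose (orange, right) or fell (blue, left) from 48 to 96 h, with the number of measured genes in brackets and dashed lines at the shares of all genes tested (15.7% rose, 20.3% fell). Lists of TGF-beta ligands, contractile genes, adhesion and proteases lie at the top with more genes higher than lower, and mitosis, DNA replication and sterol synthesis lie at the bottom.

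The matrix changed mainly upward. Of 34 interstitial and matricellular genes 16 rose and 3 fell (median 0.38), and 14 rose and 2 fell without the set term and 5 and none with the random block. Postn, periostin, a matricellular protein of mesenchyme and injured tissue, read -4.43, -4.50, -4.33, -4.06 and -4.20 at 48 h and -1.65, -1.33 and -1.06 (lowest, median, highest) at 96 h. It stayed below the embryo reference, yet no array of 1 group came near the other. The change was 2.66 (SE 0.30, adjusted p = 1.23e-06, limma).

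Col8a1, a short-chain collagen of the vessel wall, rose by 2.17 (SE 0.21, adjusted p = 2.45e-07), with 1.98 in set 1 and 2.64 in set 2. Tnc, tenascin C, rose by 1.33 (SE 0.13, adjusted p = 1.6e-07) and Col1a1, a chain of type I collagen, by 0.88 (adjusted p = 0.0104), both with overlapping arrays. Fbln1, fibulin 1, fell by 0.73 (adjusted p = 1.14e-05), Mgp, matrix Gla protein, by 0.57 (adjusted p = 0.0122) and Has2, a hyaluronan synthase, by 0.40 (adjusted p = 0.00683), and their arrays overlapped. Mgp was not called without the set term (adjusted p = 0.27). Ecm1, extracellular matrix protein 1, was among the 12 largest rises, at 2.33 (SE 0.25, adjusted p = 6.14e-07), with a larger change in set 1 (2.92) than in set 2 (1.88).

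Basement membrane genes split. Of 21 measured 9 rose and 6 fell (median -0.04), and 5 rose and 2 fell without the set term and 3 and 1 with the random block. The nidogens Nid1 and Nid2, which link laminin to collagen IV, rose by 1.64 (SE 0.19, adjusted p = 1.82e-06) and 1.27 (SE 0.17, adjusted p = 1.8e-05). The collagen IV chains Col4a1 and Col4a2 rose by 1.40 (adjusted p = 3.52e-07) and 1.06 (adjusted p = 2.73e-05). All 4 had separate groups.

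Col18a1, whose C-terminal fragment is endostatin, went the other way. Its RA48 values were 1.42, 1.39, 1.32, 1.30 and 1.22, against -0.35 to 0.09 with a median of 0.01 at 96 h. The spread within each group was small beside the gap, and the change was -1.35 (SE 0.09, adjusted p = 6.36e-10). Lama1, the laminin chain of the early embryo, fell by 0.57 (adjusted p = 0.0248), with -0.98 in set 1 and -0.03 in set 2, and the call was lost without RA48 replicate 1, 2 or 3 or RA96 replicate 1, 2 or 5 (adjusted p up to 0.0752). Hspg2, perlecan, fell by 0.43 (adjusted p = 0.0029) and was not called without the set term (adjusted p = 0.33).

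Secreted proteases rose more than they fell, with 13 of 24 higher and 3 lower (median 0.53) both with and without the set term, and 5 higher and none lower with the random block. Adamts5, an aggrecanase that cuts proteoglycans, was at -1.79, -1.63, -1.69, -1.35 and -1.58 at 48 h and at 0.87, 1.46 and 1.76 (lowest, median, highest) at 96 h. The groups were separate by more than 2 log2 units, and the change was 2.97 (SE 0.19, adjusted p = 8.59e-10, limma). Prss23, a serine protease, rose by 2.58 (SE 0.17, adjusted p = 8.59e-10), from 0.77 to 1.22 up to 3.02 to 4.16. Adamts1, another proteoglycan-cutting enzyme, rose by 1.37 (SE 0.11) and Mmp2, gelatinase A, by 1.03 (SE 0.17, adjusted p = 0.000174), while Mmp9, gelatinase B, fell by 0.86 (SE 0.13, adjusted p = 5.92e-05). The proprotein convertase Pcsk6, which can process nodal, fell by 0.57 (adjusted p = 0.00421).

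Their inhibitors included the largest of the 12 rises. Serpinb6b, an intracellular serine protease inhibitor, read 0.04, 0.02, 0.28, -0.78 and -0.15 on the RA48 arrays and from 2.30 through 3.72 to 4.42 on the RA96 arrays. The RA96 arrays spread over 2 log2 units but stayed apart from RA48, and the change was 3.80 (SE 0.31, adjusted p = 1.61e-08, limma). The related Serpinb9b and Serpinb9 rose by 2.15 (adjusted p = 5.59e-05) and 1.66 (adjusted p = 4.51e-05). These are near relatives in sequence, and cross-hybridization between their probes was not tested.

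Timp1, an inhibitor of metalloproteinases, rose by 1.33 (SE 0.11, adjusted p = 1.63e-08). Serpinf1, pigment epithelium-derived factor, fell by 1.12 (SE 0.16, adjusted p = 4.18e-05) with overlapping arrays, and the epithelial Kunitz inhibitors Spint1 and Spint2 fell by 0.52 (adjusted p = 0.000481) and 0.38 (adjusted p = 0.000556). In all, 7 of 19 protease inhibitors rose and 3 fell (median 0.18), or 36.8% and 15.8%, beside 15.7% and 20.3% of all genes. With the random block 2 rose and none fell.

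Of the lists, cell adhesion had 21 of 39 integrins, cadherins and focal adhesion genes higher and 4 lower (median 0.35), and 18 higher and 2 lower without the set term and 8 and none with the random block. Cav1, the main coat protein of caveolae, was at -4.23, -3.72, -3.99, -2.85 and -3.10 at 48 h and at -1.78, -1.36 and -1.18 (lowest, median, highest) at 96 h. RA48 replicates 4 and 5 were the highest of their group, and the groups did not overlap. Its change was 2.05 (SE 0.23, adjusted p = 1.56e-06), with 2.77 in set 1 and 1.45 in set 2. Its partner Cav2 rose by 1.54 (SE 0.16, adjusted p = 3.61e-07).

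Cdh11, a cadherin of mesenchyme, rose by 1.28 (SE 0.19, adjusted p = 5.07e-05) and Itgb1, the beta 1 integrin shared by most matrix receptors, by 1.19 (SE 0.10, adjusted p = 5.02e-08), both with separate groups. Cdh1, E-cadherin, fell by 0.45 (SE 0.11, adjusted p = 0.00313), and the integrin subunits Itgb5 (-0.69, adjusted p = 0.000806), Itga2 (-0.47, adjusted p = 0.0081) and Itgb4 (-0.42, adjusted p = 0.00693) fell. Without the set term Cdh1 and Itgb4 were not called (adjusted p = 0.086 and 0.072).

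Of 25 actin remodelling genes 11 rose and 2 fell (median 0.20), and 9 rose and none fell without the set term and 5 and none with the random block. Msn, moesin, which ties actin to the membrane, rose by 0.98 (SE 0.08, adjusted p = 9.53e-09), Actn1, alpha-actinin 1, by 0.86 (SE 0.14, adjusted p = 0.000175), Zyx, zyxin of focal adhesions, by 0.82 (SE 0.08, adjusted p = 2.64e-07) and Enah, an actin polymerase, by 0.74 (SE 0.08, adjusted p = 4.81e-07). None of the 4 had overlapping groups. The falls of Ablim1 (-0.40, adjusted p = 0.00954) and Diaph1 (-0.26, adjusted p = 0.00427) were not called without the set term (adjusted p = 0.66 and 0.079).

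Of 14 mesenchymal genes 7 rose and 1 fell (median 0.52). They included Snai2, a repressor of E-cadherin (0.90, SE 0.10, adjusted p = 1.3e-06), and Cd44, the hyaluronan receptor (0.88, SE 0.09, adjusted p = 8.18e-07). Of 20 galectins, annexins and S100 proteins 7 rose and 3 fell (median -0.04), and 5 rose and none fell both without the set term and with the random block. Anxa1, a phospholipid-binding protein, rose by 2.24 (SE 0.12, adjusted p = 1.44e-10), from -0.14 to 0.25 up to 1.97 to 2.57, and S100a6, calcyclin, by 1.60 (SE 0.17, adjusted p = 5.33e-07). Emp1, a membrane protein of the peripheral myelin protein family, rose by 2.58 (SE 0.33, adjusted p = 9.21e-06), with 3.62 in set 1 and 1.72 in set 2, a difference between the sets that passed its own test (adjusted p = 0.00276).

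**Figure D3:**
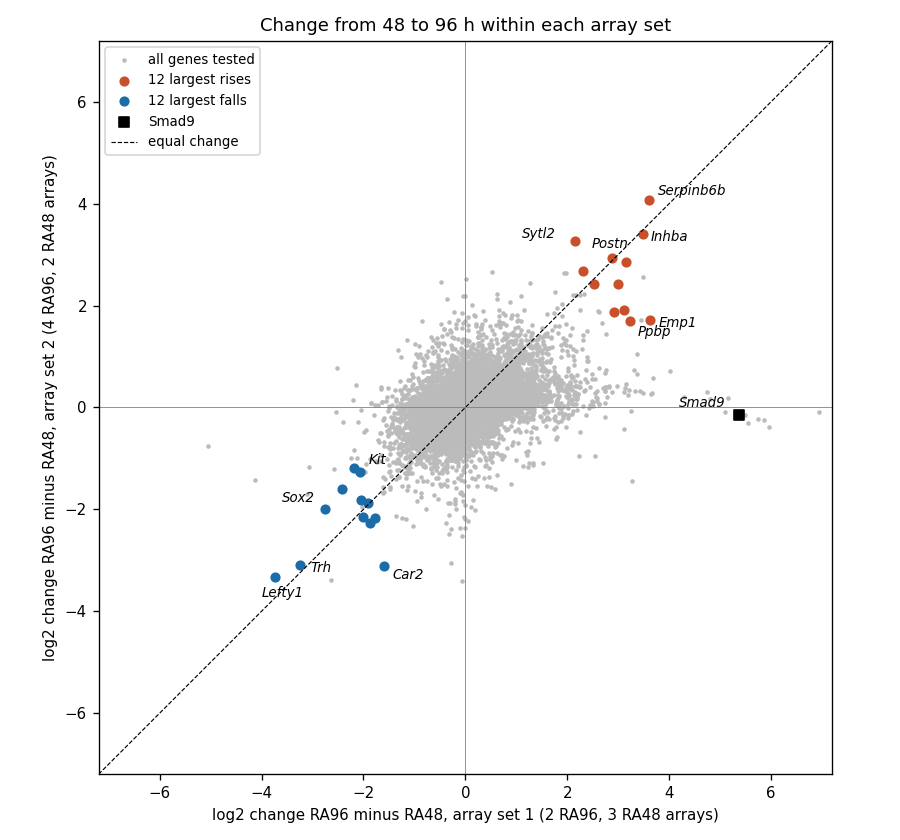
Change in log2 ratio from 48 to 96 h within array set 1 (horizontal axis) and set 2 (vertical axis), with a dashed line where the changes are equal. Grey points are all 17863 rows tested, of which 8683 are genes and the others are probes without a single gene symbol. The 12 largest rises are orange and the 12 largest falls blue. The 12 rises and 12 falls lie in the upper right and lower left, as the rule that chose them requires, and Car2 and Emp1 lie off the line. Smad9 (black square, 5.38 and -0.15) belongs to a band of rows with a large change in set 1 and one near 0 in set 2.

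Growth factors and their receptors moved both ways, 12 of 48 up and 14 down (median -0.07), or 25% and 29.2%, beside 15.7% and 20.3% of all genes. Pdgfc, a platelet-derived growth factor, was at -0.82, -0.74, -0.47, -0.85 and -0.94 at 48 h and at 1.41, 1.65 and 1.96 (lowest, median, highest) at 96 h. The groups lay far apart, both of its probes rose, and the change was 2.38 (SE 0.14, adjusted p = 3.24e-10, limma). Hbegf, an EGF-like ligand, rose by 2.08 (SE 0.14, adjusted p = 1.77e-09) and its receptor Egfr by 1.49 (SE 0.11, adjusted p = 6.75e-09). Cxcl12, a chemokine of mesenchyme, rose by 1.67 (SE 0.18, adjusted p = 1.05e-06).

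Receptors were among the falls. Kit, the receptor of stem cell factor, had RA48 values of 1.22, 1.26, 1.15, 0.78 and 0.97 and RA96 values of -1.04, -0.55 and -0.08 (lowest, median, highest). The groups were separate, and the change was -1.68 (SE 0.16, adjusted p = 1.7e-07). Gfra1, the co-receptor of GDNF, read 1.45, 1.74, 1.69, 1.36 and 1.55 at 48 h and -0.93 to 0.29 at 96 h, a change of -2.0 (SE 0.24, adjusted p = 2.92e-06). Its RA96 arrays spread widely, and the call was lost with the random block (adjusted p = 0.062). Ednrb, an endothelin receptor, fell by 0.95 (adjusted p = 8.33e-07) and Fgfr1 by 0.84 (adjusted p = 2.76e-07), both without overlap. Prex2, an exchange factor for Rac, fell by 2.19 (SE 0.35, adjusted p = 0.000108) and Sowahb by 1.71 (SE 0.24, adjusted p = 2.05e-05), and both calls were lost with the random block (adjusted p = 0.31 and 0.15).

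Ptgs2, the inducible cyclooxygenase, read 0.99, 1.20, 1.02, 0.34 and 0.23 at 48 h and 1.98, 2.37 and 4.36 (lowest, median, highest) at 96 h. RA96 replicates of set 1 were the highest, and the change was 2.51 (SE 0.31, adjusted p = 6.05e-06), with 3.12 in set 1 and 1.91 in set 2 and no call under the random block (adjusted p = 0.11). Of 16 chemokines and cytokines 7 rose and 1 fell (median 0.26), beside 15.7% and 20.3% of all genes. Of 15 immediate early genes 8 rose and none fell (median 0.28, with 0.65 in set 1 and 0.27 in set 2). With the random block 1 chemokine or cytokine gene rose, and no immediate early gene was called. The immediate early genes that rose included the phosphatases Dusp4 (1.22, adjusted p = 2.77e-05) and Dusp1 (0.85, adjusted p = 0.000871), Ier3 (1.05, adjusted p = 0.000547) and the zinc finger factor Egr1 (1.09, SE 0.35, adjusted p = 0.0229). Dusp1 was not called without the set term (adjusted p = 0.081). Egr1 spread from 0.13 to 1.19 within RA48 and from 0.77 to 2.80 within RA96, and its call was lost without RA48 replicate 4 or RA96 replicate 1 (adjusted p up to 0.0596). Ppbp, a platelet chemokine, rose by 2.31 (SE 0.37, adjusted p = 9.6e-05) and was also lost under the random block (adjusted p = 0.16).

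Of 27 pluripotency genes 12 fell and 3 rose (median -0.19), 10 fell and 2 rose without the set term, and 4 fell and none rose with the random block. Sox2, a factor of pluripotent and neural cells, read 2.83, 3.02, 2.70, 2.47 and 3.31 at 48 h and 0.09, 0.64 and 1.19 (lowest, median, highest) at 96 h. No array overlapped, and the change was -2.48 (SE 0.45, adjusted p = 0.000333, limma), called in set 1 (-2.75) but not in set 2 (-1.99, adjusted p = 0.14). The call of Sox2 was also lost with the random block (adjusted p = 0.47). Sall4, a zinc finger factor of stem cells, fell by 1.08 (SE 0.09, adjusted p = 1.78e-08), with RA48 arrays between 1.31 and 1.38.

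Nanog was near the reference already at 48 h, with values of -0.53 to 0.33, and fell by 0.31 (SE 0.09, adjusted p = 0.0125). Its arrays overlapped, and the call was lost without the set term (adjusted p = 0.076). The 3 genes of the list that rose were Krüppel-like factors, Klf4 (0.96), Klf2 (0.53, adjusted p = 0.0139) and Klf5 (0.50, adjusted p = 0.00666), which are also expressed in vascular or epithelial cells. Klf2 was not called without the set term (adjusted p = 0.14).

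Of 42 genes of DNA methylation and chromatin 18 fell and 5 rose (median -0.26), 12 fell and 3 rose without the set term, and 3 fell and 1 rose with the random block. Dnmt3b, a de novo DNA methyltransferase, fell by 1.13 (SE 0.13, adjusted p = 1.3e-06), from 1.76 to 2.05 at 48 h to 0.39 to 1.04 at 96 h, and its partner Dnmt3l by 0.93 (adjusted p = 0.000926). Jarid2, a partner of the Polycomb complex PRC2, fell by 0.98 (SE 0.10, adjusted p = 5.16e-07) and Hmgb2, a chromatin protein of dividing cells, by 0.81 (adjusted p = 1.62e-06). In the other direction Mbd2, which binds methylated DNA, rose by 1.01 (SE 0.09, adjusted p = 1.26e-07) with separate groups.

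Of 27 neural and axial patterning genes 11 fell and 2 rose (median -0.28), 10 fell and none rose without the set term, and 3 fell and none rose with the random block. Trh, the precursor of thyrotropin-releasing hormone, was at 3.33, 3.50, 3.14, 3.32 and 3.45 at 48 h and at -0.36, 0.20 and 0.87 (lowest, median, highest) at 96 h. The groups were more than 2 log2 units apart, and the change was -3.04 (SE 0.30, adjusted p = 2.65e-07). Irx3, an Iroquois homeobox factor of the neural tube, read 2.36, 2.50, 2.35, 1.61 and 1.94 at 48 h and -0.19 to 0.45 at 96 h, a change of -1.98 (SE 0.17, adjusted p = 5.26e-08). Prtg, protogenin, a surface protein of the early neural plate and mesoderm, fell by 1.94 (SE 0.12, adjusted p = 6.36e-10), and its 2 probes fell by different amounts (-2.33 and -2.74 in the sets for the one, -1.49 and -1.02 for the other).

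Sox11 (0.38, adjusted p = 0.0445) and Sox21 (0.29, adjusted p = 0.0303), factors of neural progenitors, were the 2 that rose, and neither was called without the set term (adjusted p = 0.064 and 0.14). The call of Sox11 was lost without any 1 of RA48 replicates 1, 3, 4 and 5 and RA96 replicates 4, 5 and 6 (adjusted p up to 0.185), and that of Sox21 without RA48 replicate 1, 2 or 3 or RA96 replicate 1, 2 or 5 (adjusted p up to 0.0815).

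Of 26 Wnt pathway genes 9 fell and 4 rose (median -0.16), or 34.6% and 15.4%, where 20.3% of all genes fell and 15.7% rose. Without the set term 8 fell and 2 rose, and none was called either way with the random block. The secreted Wnt inhibitors Wif1 and Dkk1 fell by 1.56 (SE 0.22, adjusted p = 3.17e-05) and 0.89 (SE 0.18, adjusted p = 0.00085), the transcription factor Tcf7l2 by 1.16 (adjusted p = 0.00103) and the Wnt5a receptor Ror2 by 0.73 (adjusted p = 3.2e-05). Rspo3, a secreted enhancer of Wnt signalling, was called higher (1.97, SE 0.49, adjusted p = 0.00444), with RA48 replicates 1 to 3 at -1.66 to -1.12, replicates 4 and 5 at 1.50 and 1.62, and a change of 3.65 in set 1 against 0.27 in set 2.

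Of 19 retinoic acid response genes 1 rose and 4 fell (median -0.05), or 5.3% and 21%, beside 15.7% and 20.3% of all genes. Stra6, the membrane receptor for retinol transport, fell by 1.28 (SE 0.13, adjusted p = 3.62e-07), from 1.02 to 1.99 at 48 h to -0.37 to 0.57 at 96 h. Rarb, a retinoic acid receptor that is itself a target of retinoic acid, did not pass the test (-0.14, SE 0.19, adjusted p = 0.595), and its arrays spanned 2.03 to 3.13 at 48 h and 2.15 to 3.26 at 96 h. Rara, the alpha receptor, fell by 0.36 (adjusted p = 0.0131) but was not called without the set term (adjusted p = 0.091). Nr2f2, the orphan receptor COUP-TFII, rose by 0.62 (adjusted p = 0.00251).

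Of 18 imprinted and insulin-like growth factor genes 4 rose and 4 fell (median 0.01), or 22.2% each way, beside 15.7% and 20.3% of all genes. The binding proteins Igfbp2 and Igfbp3 were among the falls. Igfbp2 read 1.25, 1.32, 1.50, 2.86 and 2.72 at 48 h and -0.67, 0.42 and 0.94 (lowest, median, highest) at 96 h. Arrays of set 2 were higher in both groups, the groups did not overlap, and the change was -2.05 (SE 0.13, adjusted p = 4.6e-10), with -2.0 and -2.15 in the sets. Igfbp3 fell by 1.56 (SE 0.25, adjusted p = 0.000127), less in set 1 (-1.03) than in set 2 (-2.34). Igf2, the imprinted growth factor, rose by 0.93 (SE 0.27, adjusted p = 0.0119), but by 0.18 in set 1 and 1.79 in set 2, and its call was lost without RA48 replicate 4 or 5 (adjusted p up to 0.0518). Car2, carbonic anhydrase 2, fell by 2.35 (SE 0.19, adjusted p = 1.82e-08), by 1.60 in set 1 and 3.11 in set 2.

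Genes of extraembryonic endoderm moved in both directions, 13 of 24 up and 6 down (median 0.36). The rises included the matrix genes Nid1, Col4a1 and Col4a2 given above and Krt18 (1.12, adjusted p = 0.000608), which other cells express too. The factors Foxa1 and Foxa2 fell by 0.76 (adjusted p = 4.29e-05) and 0.68 (adjusted p = 0.000126), Cited1, a transcriptional coactivator, by 1.10 (adjusted p = 4.07e-06) and Apoe, apolipoprotein E, by 0.92 (adjusted p = 9.94e-05). Apoe and Krt18 were not called without the set term (adjusted p = 0.21 and 0.059). Of 25 epithelial genes 4 rose and 6 fell (16% and 24%, beside 15.7% and 20.3% of all genes). The largest fall among them was that of Large2, a glycosyltransferase of dystroglycan (-2.0, SE 0.19, adjusted p = 1.24e-07).

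More cell cycle genes fell than rose. Of 34 mitosis genes 20 fell and 1 rose (median -0.35), and 13 fell and none rose without the set term. Of 47 DNA replication genes 24 fell and 2 rose (median -0.27), and 18 fell and 1 rose without it. With the random block 1 gene of each list fell and none rose. Cdc25b, a phosphatase that starts mitosis, fell by 1.02 (SE 0.17, adjusted p = 0.000196), and Ccnb2, a mitotic cyclin, fell by 0.78 (SE 0.10, adjusted p = 4.6e-06), from 1.39 to 1.66 down to 0.46 to 1.11. Cdt1, which licenses replication origins, fell by 0.79 (adjusted p = 4.42e-06), Mcm5, a helicase subunit, by 0.69 (adjusted p = 4.64e-05) and Lig1, the replicative ligase, by 0.69 (adjusted p = 6.95e-05). None of these 5 had overlapping groups.

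Inhibitors of the cycle split, 7 of 22 up and 6 down (median 0.17), or 31.8% and 27.3%, beside 15.7% and 20.3% of all genes. With the random block 3 rose and none fell. Cdkn2b, the CDK inhibitor p15 and a known TGF-beta target, rose by 1.66 (SE 0.16, adjusted p = 2.2e-07), from 0.77 to 1.37 at 48 h to 1.86 to 3.34 at 96 h. Plk2, a p53 target kinase, rose by 1.33 (SE 0.15, adjusted p = 2.13e-06) and Cdkn1a, the CDK inhibitor p21, by 0.86 (SE 0.16, adjusted p = 0.00041), with 1.46 in set 1 and 0.38 in set 2. Rbl2 rose (0.96, adjusted p = 0.00204) while its relative Rbl1 fell (-0.52, adjusted p = 0.000105), both members of the retinoblastoma family. Sesn1 and Sesn2, p53-linked stress genes, fell by 0.52 (adjusted p = 0.00914) and 0.40 (adjusted p = 0.00363), and Sesn2 was not called without the set term (adjusted p = 0.095).

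Several metabolic lists depended on how the sets were handled. Of 40 cytosolic ribosomal protein genes 20 fell and 2 rose (median -0.26), but without the set term 1 fell and 2 rose. Of 17 sterol synthesis genes 8 fell and none rose, with a median change of -0.82 in set 1 and 0.10 in set 2. Srebf2, the regulator of that pathway, fell by 1.07 (SE 0.21, adjusted p = 0.000659), by 1.67 in set 1 and 0.50 in set 2, where it was not called (adjusted p = 0.19). Of 17 glycolysis genes 8 fell and 1 rose (median -0.30), among them Pkm, pyruvate kinase (-0.53, adjusted p = 0.00035), Aldoc, an aldolase (-0.55, adjusted p = 0.00209), and the lactate transporter Slc16a3 (-0.61, adjusted p = 0.000281), and 6 fell without the set term.

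Of 28 chaperones and stress genes of the endoplasmic reticulum 9 rose and 1 fell. Hspb1, a small heat shock protein abundant in muscle, rose by 1.34 (SE 0.17, adjusted p = 6.47e-06) with separate groups, and Hspa5, the chaperone BiP, by 0.82 (adjusted p = 9.69e-06) with overlap. Of 22 interferon and antigen presentation genes 7 fell (20.3% of all genes did) and 3 rose (median -0.22), with Psmb8, an immunoproteasome subunit, at -1.14 (adjusted p = 5.12e-07), Bst2, tetherin, at -0.99 (adjusted p = 2.81e-06) and Usp18 at -0.90 (adjusted p = 0.000601). B2m, the light chain of class I molecules, rose by 1.04 (SE 0.09, adjusted p = 1.85e-08).

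The change from 48 to 96 h was next set against the change from 0 to 48 h in 1 contrast. Both changes use the RA48 arrays, with opposite signs, so an error in RA48 moves both. Control dishes were untreated and near to confluence, while RA48 and RA96 cells had both been changed at lower confluence to basal medium with retinoic acid. The first change therefore joins cell density, medium and retinoic acid, and the second does not include that switch. How much each of them gave to the first change was not tested. The changes differed for 2791 genes (32.1%), the second being higher for 1233 (14.2%) and lower for 1558 (17.9%). Most genes named here were chosen for a large second change, which tilts this contrast, so where the second change was the larger it is given as a description with no test.

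Several genes gained more in the second interval. Inhba had group means of -0.44 (SD 0.74, n = 6) in Control, -0.06 (SD 0.43, n = 5) at 48 h and 3.28 (SD 0.29, n = 6) at 96 h. Sytl2, a Rab27 effector, was at -0.91 and -0.79 before rising to 1.95, and Timp1 went from -1.06 to -1.32 and then to 0.10. Cxcl12 fell from 0.35 to -0.31 before it rose to 1.29.

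Acta2 had made the larger part of its gain over Control by 48 h, an interval that includes the change of density and medium. Its means were -4.90 (SD 0.65, n = 6), -0.34 (SD 0.14, n = 5) and 1.87 (SD 0.13, n = 6), and the second change was below the first by 2.50 (adjusted p = 7.2e-06). The same held for Anxa1 (-3.91, -0.01 and 2.34, adjusted p = 5.8e-06), Ccn2 (-0.56, 2.44 and 4.06, adjusted p = 0.0004), Nid1 (-3.10, -0.53 and 1.12, adjusted p = 0.04) and B2m (adjusted p = 0.0014). For Myl9 and Fhl1 the changes did not differ by the test (adjusted p = 0.15 and 0.52).

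Several genes stood highest at 48 h. Lefty1 went from 3.85 (SD 0.22, n = 6) to 5.88 (SD 0.38, n = 5) and then to 2.23 (SD 0.40, n = 6). Irx3 went from -0.97 to 2.15 to 0.09, Gfra1 from -2.0 to 1.56 to -0.37, and Kit from -0.79 to 1.08 to -0.55. Col18a1 (-1.28, 1.33 and -0.05), Stra6 (-0.43, 1.55 and 0.17) and Serpinf1 (-2.84, 0.40 and -0.50) had the same course. These 7 genes are examples and not a full list. Among them the mean of Lefty1 at 96 h was below that of Control, and the means of the other 6 were above it. A drop below Control was not particular to Lefty1. Prtg (3.35, 4.44 and 2.34) and Large2 (0.63, 1.25 and -0.84) also stood highest at 48 h and ended below Control.

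Other losses ran through both intervals. Sox2 fell from 5.09 to 2.87 and then to 0.63, and Trh from 5.34 to 3.35 and then to 0.22, with no difference between the changes that passed the test (adjusted p = 0.79 and 0.17). Dnmt3b had lost more before 48 h (5.24, 1.93 and 0.74, adjusted p = 2.7e-07), while for Jarid2 (2.49, 1.33 and 0.37) the changes did not differ by the test (adjusted p = 0.53).

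**Figure D4:**
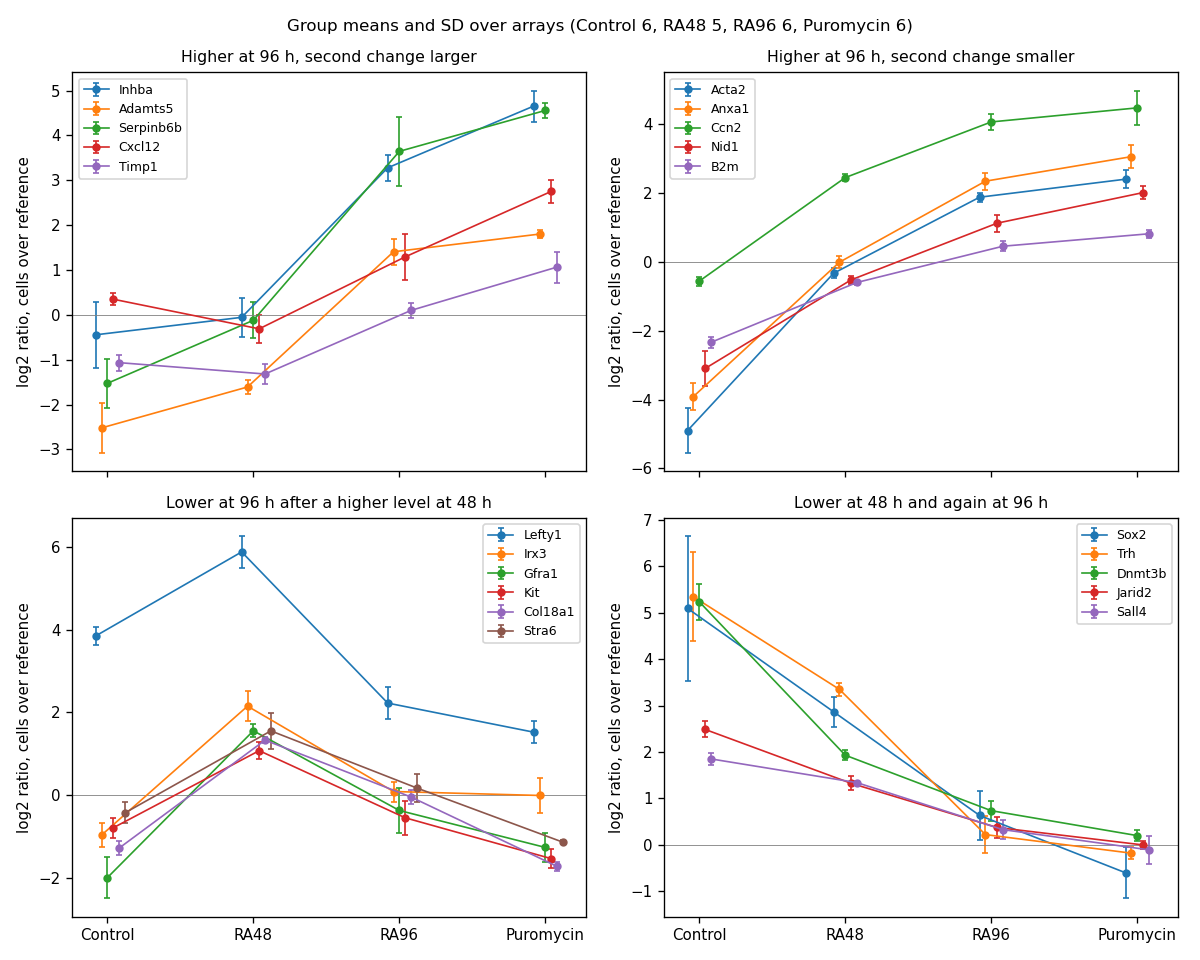
Mean log2 ratio of cells over the embryo reference (vertical axis) with the SD over arrays in Control (6), RA48 (5), RA96 (6) and Puromycin (6) for genes of 4 courses, each drawn in its own panel. Inhba stays near 0 until 48 h and reaches 3.28 at 96 h, and Acta2 rises mostly from Control to RA48. Lefty1, Irx3, Gfra1 and Kit stand highest at 48 h, and Sox2 and Trh fall in both intervals. Control also differed from RA48 and RA96 in density and medium.

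Over all 23 arrays, after the set means were removed, the 5 genes most like Acta2 by Pearson correlation were Fndc3b (0.997), Lpp (0.996), Akap2, B2m and Anxa5 (each 0.995). These values describe 4 groups of arrays that share groups, sets and reference. From 48 to 96 h Lpp, a LIM protein of focal adhesions, rose by 1.18 (adjusted p = 9.43e-08), Anxa5, annexin A5, by 1.06 (adjusted p = 9.07e-06), Fndc3b by 1.01 (adjusted p = 2.03e-05) and Akap2, an anchor of protein kinase A, by 0.63 (adjusted p = 6.39e-06). The gene with the lowest correlation was Dnmt3b (-0.994).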

How the data were processed

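Per the labels, Cy5-labelled A404 RNA and Cy3-labelled embryo RNA were hybridized together to 2-colour Agilent arrays with no dye swap and quantified with Agilent Feature Extraction. The authors deposited 1 table of log10 ratios per probe and array. What logarithm base, centring and direction it uses is not given in the sources used here. Base 10 was inferred from how far the values range, dividing by 0.301 (log10 of 2) turned them into log2 ratios, and the dyes gave the direction. Intensities were not used here, so no detection limit is given, and the number of arrays limits the precision. Of 21446 rows, 1166 control-like rows (5.44%) without a gene were left out. Of the other 20280 probes 11100 had 1 gene symbol in GEO's platform annotation, 442 several and 8738 none. Probes of a symbol were averaged (1926 genes had more than 1 probe), which gave 17863 rows, 8683 of them genes.

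All 23 arrays were fitted with limma 3.58.1 in R 4.3.3 (lmFit and eBayes, 4 group means plus array set), with no further normalization. A gene rose or fell at an adjusted p under 0.05. In simulated data made on these 17863 rows the fit recovered 53.7%, 86.6% and 97.0% of changes of 0.5, 1 and 2 on the log2 scale, and 6.51% of its calls were false. The simulation had independent errors, 200 changed rows and the same change in both sets. In the real data the change differed between the sets for 12.7% of genes, and the random block had a correlation of 0.675. The simulated rates are therefore not those of the calls given here.

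Members and lists were chosen with earlier results of these data known. Genes are named if they are Acta2, Cnn1, Myh11, Myl9, Nanog, Sox2, Rarb, Inhba, Adamts5, Postn or Lefty1, if they are among the 12 largest called rises or falls with 1 sign in both sets (a predicted gene was passed over), if they are among up to 4 called members each way of a described list (all of a list of 12 or fewer), or if they are among the 5 most like Acta2. Others are marked. Alternatives tried were the fit without the set, each set alone, a random block, the RA48 and RA96 arrays alone, a replicate block, 3 normalizations between arrays, single probes, array weights, trended variance, control-like rows kept, a log2 reading, stricter thresholds and each array left out. Promoter sequences are RefSeq's (GRCm38.p6), and coordinates are 1-based.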

Additional observations from a re-analysis of the deposited data

Results flagged for a closer look

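By the limit of Dixon's test, 10 of 322 groups of arrays had an array set apart (RA48 and RA96 for each of 161 genes). Chance marks about 1 in 20 groups with a single normal spread, but these groups mix the array sets. A gap between the sets can hide a distant array, so the 10 cannot be set against that rate. For Sytl2, RA48 replicate 5 read -1.76 with the next array at -0.73, and every RA96 array was still above all RA48 arrays. For Acvr2b, RA96 replicate 2 read -0.36 and the next 0.07, and for Cdt1 the same array read -0.16 and the next 0.33. RA96 replicate 4 was low for Cd44 (0.57, next 0.84) and for Gata6 (1.85, next 2.39), and RA96 replicate 5 was low for B2m (0.17, next 0.43) and for Anxa5 (0.65, next 0.90). RA48 replicate 4 was low for Rbl1 (0.38, next 0.74) and for Sox11 (-0.57, next -0.07), and RA48 replicate 5 was high for Lig1 (1.03, next 0.79).

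The difference between the array sets in the change from 48 to 96 h was tested for each of the 161 genes given with a change (limma, adjusted over all rows), and 32 passed, where 12.7% of all genes did. The change was the larger in set 1 for 27 of them, and for Smad9, Fst and Skil the sets had opposite signs. The difference, set 2 minus set 1, was -5.53 for Smad9 (adjusted p = 1.22e-09), -3.37 for Rspo3, -1.90 for Emp1, -1.52 for Car2 (adjusted p = 4.06e-05), -1.32 for Cav1, -1.31 for Igfbp3 (adjusted p = 5.4e-05), -1.08 for Cdkn1a, -1.04 for Ecm1 and -1.03 for Dusp4. It was -0.81 for Tgfbr2, -0.76 for Mmp9, -0.68 for Klf5, -0.66 for Cd44, -0.65 for Skil, -0.57 for Fst and -0.43 for Zyx. On the other side it was 1.61 for Igf2 and 1.18 for Srebf2, 0.95 for Lama1, 0.87 for Apoe, 0.80 for Dkk1, 0.71 for Cited1, Foxa2 and Bst2, 0.69 for Tgfbr3 and 0.68 for Itgb4. It was 0.66 for Col8a1, 0.64 for Ski, 0.63 for Itga2, 0.58 for Aldoc, 0.53 for Rara and 0.36 for Eng. For these 32 genes the adjusted p was 0.046 or lower.

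Among the 244 called genes with at least a 2-fold change, 2 had opposite signs in the sets, Smad9 and Mmab, the latter picked with its values known (2.02 in set 1 and -0.01 in set 2).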

How the results depend on the processing

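The count of called genes was 3128 (1367 higher, 1761 lower). It was 1949 without the set term (1011 lower), all among the 3128, 1391 in set 2 alone (684 higher, 707 lower), 199 with the random block (123 higher, 76 lower), 1860 at an adjusted p under 0.01 (874 higher, 986 lower) and 244 with a 2-fold limit (165 higher, 79 lower), the last 2 by construction of the threshold. Leaving out 1 array gave 2604 to 3141 genes, 1163 to 1409 higher and 1411 to 1802 lower. The count for the second change against the first was 2791 (1233 higher, 1558 lower). It was 1573 without the set term (648 higher, 925 lower), 1475 in set 2 alone (691 higher, 784 lower), 231 with the random block (67 higher, 164 lower), 4199 with array weights (1915 higher), 1799 at 0.01 (752 higher) and 857 with a 2-fold limit (297 higher, 560 lower), and 2271 to 2801 with 1 array left out (965 to 1294 higher, 1279 to 1603 lower). Median centring changed the split to 1458 higher and 1599 lower. Deviations of same-numbered RA48 and RA96 arrays correlated at -0.05 to 0.07 once the set was removed. With 2 arrays each in RA96 of set 1 and RA48 of set 2, these values cannot settle whether same-numbered arrays were linked. A replicate block with the set gave 2334 genes (1145 higher, 1189 lower). Signs turned for Smad9 in set 2 (-0.15) and otherwise for genes that did not pass the test: Fst (-0.23) and Gdf10 (-0.0097) in set 2, Inha in set 1 (-0.11), with array weights (-0.036) and with 1 array left out (-0.016 to 0.078, lowest without RA48 replicate 4), Myh11 without the set term (0.30), Rarb in set 2 (0.031) and with RA48 and RA96 arrays alone (0.0092), Tgif1 with scale normalization (0.015), and Skil without the set term (-0.064), in set 2 (-0.24), with quantile (-0.13) or scale (-0.14) normalization and with 1 array left out (-0.040 to 0.13, below 0 without RA96 replicate 1 or 3). Apart from the thresholds and left-out arrays, the cause of these shifts was not tested. Set 2 holds 2 RA48 arrays, and 36 of the 152 called genes given with a change were not called there.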

Other observations

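Of 33 axon guidance genes 6 rose and 12 fell (median -0.15), with 6 and 8 called without the set term, and of 46 vesicle trafficking genes 8 rose and 4 fell (median 0.04), beside 15.7% and 20.3% of all genes that rose and fell. Of 20 Hox and TALE homeobox genes 4 rose and 1 fell (median -0.02), and of 17 Notch pathway genes 2 rose and 2 fell (median -0.04). Of 22 cardiac and skeletal muscle genes 6 rose and 3 fell (median 0.07), of 19 neuronal and glial genes 4 rose and 1 fell (median 0.13), of 11 endothelial genes 2 rose and 4 fell (median -0.24), and of 9 blood and macrophage genes 1 rose and 3 fell (median -0.25).

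Of 51 respiratory chain and ATP synthase genes 9 fell and 1 rose (median -0.09), and none was called in either direction without the set term. Of 32 proteasome genes 5 fell and 2 rose, and of 29 ribosome biogenesis genes 5 fell and 5 rose, with medians of 0.01 for each list. Of 17 membrane proteins with 4 passes 5 rose and 3 fell (median 0.03). The shares that fell were 17.65%, 15.6%, 17.2% and 17.65% in the order given, none above the 20.3% of all genes. The shares that rose were 1.96%, 6.25%, 17.2% and 29.4%, beside 15.7% of all genes.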
